A study of Caenorhabditis elegans with 2 samples.

Results

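Autosomal intergenic regions far from starts were described in chromatin that an anti-GFP antibody recovered from C. elegans with a tagged T07F8.4 protein. A region was included when its summit had no annotated transcript start of any kind within 1000 bp and lay in no annotated transcript. Of the 16958 regions in the authors' list for the pooled replicates, 14192 were on autosomes, and 1247 of these met the rule. Whole young adult hermaphrodites were collected 64 h after synchronization as starved L1 larvae. All were of strain OP478, which carries unc-119(tm4063) III and the transgene insertion wgIs478, a fusion of T07F8.4 to a C-terminal GFP-FLAG tag. The 2 samples, both of this strain, were biological replicates of 1 group. No untagged strain, input DNA or other tagged protein was analysed here, so no conditions could be compared and no test between groups was made.

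In C. elegans, autosomes have central parts with little recombination and arms that recombine more and hold more repeats, and intergenic stretches are short by animal standards. DNA far from annotated starts can hold enhancers, unannotated promoters, repeats and remnants of transposed genes. RNA polymerase III, which makes tRNAs, can start from promoters that lie inside the transcribed DNA, formed by an A box and a B box, so such a promoter can be recognised from sequence alone.

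The sequence at the summits is shown first for 12 of the 23 regions that were also in the authors' list of reproducible peaks, because the elements in it recur in the values that follow. All run from 50 bp before to 50 bp after the summit, read from the RefSeq sequence of WBcel235 (build ce11), and are named by the genes on either side. The first set is those in which a scan with matrices built from annotated tRNA genes found a B box, or an A box followed by a B box. Capitals mark the matched boxes, each 15 bases long, and none of the 4 lies in an annotated tRNA gene.
ckr-2/M01E10.5 (chrIII:2031327-2031427, minus strand): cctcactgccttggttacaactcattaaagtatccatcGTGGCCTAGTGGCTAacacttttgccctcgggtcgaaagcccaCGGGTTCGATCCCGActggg
mrpl-40/pat-4 (chrIII:89277-89377, minus strand): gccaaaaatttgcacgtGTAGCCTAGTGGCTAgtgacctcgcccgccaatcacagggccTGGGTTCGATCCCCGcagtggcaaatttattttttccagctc
ftn-1 upstream (chrV:7548706-7548806, minus strand): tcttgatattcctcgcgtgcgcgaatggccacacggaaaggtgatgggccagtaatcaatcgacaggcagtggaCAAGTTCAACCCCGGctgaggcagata
C14C11.7/pqn-13 (chrV:5667457-5667557, minus strand): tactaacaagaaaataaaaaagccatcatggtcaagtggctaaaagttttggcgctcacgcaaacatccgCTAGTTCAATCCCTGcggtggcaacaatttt

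The second set is those that hold the 8 bases TGCGTCTC, in capitals. The last 6 of these bases, CGTCTC, are the reverse complement of the 6-base element GAGACG, so every region with the longer element also holds the shorter one. Both elements were chosen after the sequences had been seen.
let-765/mdh-2 (chrIII:6606282-6606382, plus strand): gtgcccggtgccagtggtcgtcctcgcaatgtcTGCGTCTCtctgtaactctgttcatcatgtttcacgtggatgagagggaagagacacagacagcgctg
F54F12.6/Y39E4B.6 (chrIII:13068494-13068594, plus strand): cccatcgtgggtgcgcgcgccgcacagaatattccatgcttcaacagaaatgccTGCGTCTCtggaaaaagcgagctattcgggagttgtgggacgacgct
Y17G7B.17/Y17G7B.18 (chrII:12102481-12102581, minus strand): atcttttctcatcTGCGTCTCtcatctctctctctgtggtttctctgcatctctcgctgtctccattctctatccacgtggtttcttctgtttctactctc
ogt-1/nuo-4 (chrIII:7155756-7155856, plus strand): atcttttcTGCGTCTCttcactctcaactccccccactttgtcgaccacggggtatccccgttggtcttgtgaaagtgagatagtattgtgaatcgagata

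The third set completes the regions of highest signal whose sequence is printed and adds 1 sequence that recurs in the genome. In the first pair, capitals mark CGTCTC, the reverse complement of GAGACG, which occurs more than once in each. The remaining pair holds neither element nor a B box that reached the threshold, and has no capitals. The last of them, between str-169 and a piRNA gene, had 45 other copies in the genome.
mtm-3/xbx-5 (chrIII:3801434-3801534, plus strand): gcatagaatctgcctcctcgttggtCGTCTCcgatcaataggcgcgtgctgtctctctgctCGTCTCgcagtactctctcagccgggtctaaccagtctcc
saeg-1/F32D8.1 (chrV:10871495-10871595, minus strand): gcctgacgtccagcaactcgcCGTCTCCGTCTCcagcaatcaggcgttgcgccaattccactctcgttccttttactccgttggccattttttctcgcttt
C36C5.12/C36C5.14 (chrV:3163328-3163428, plus strand): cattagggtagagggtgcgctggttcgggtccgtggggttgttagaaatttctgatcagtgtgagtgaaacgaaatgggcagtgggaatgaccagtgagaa
str-169/21ur-9517 (chrIV:4949895-4949995, plus strand): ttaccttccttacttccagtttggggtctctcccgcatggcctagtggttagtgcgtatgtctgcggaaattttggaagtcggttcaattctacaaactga

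Each region had a signal value from the authors' peak caller, on a scale not given in the sources used here. Values were used only to rank and describe regions within a list. The depth of sequencing is unknown, as no list gives read counts. The replicate 1 list held 19514 regions, the replicate 2 list 17499 and the reproducible list, selected by the authors with the irreproducible discovery rate, 621. All 1247 intergenic regions had the same width, 436 bp, so width carried no information. The lowest signal of any reproducible region was 68.2 and the highest signal of an intergenic region outside that list was 67.4, so for these regions the reproducible call amounts to a high pooled signal.

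The signal of the 1247 intergenic regions ran from 17.0 to 136.8. Its median was 22.7, with quartiles of 19.3 and 28.4. The other 12945 autosomal regions had a median of 23.1 and quartiles of 19.5 and 30.2, and reached 364.2. The bulk of the intergenic regions thus had the same range as the rest of the autosomal list, while the highest values of the list lay elsewhere. On the X chromosome, 398 regions met the same rule, with a median of 21.4 and a maximum of 221.6.

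Reproducible calls numbered 23 of 1247, or 1.84% (95% Wilson interval 1.23% to 2.75%). In the whole pooled list the share was 3.66%, and among the other autosomal regions it was 3.18%, or 412 of 12945 (2.89% to 3.499%). The intergenic share lay below that of the other autosomal regions. Wilson intervals here and below cover counting error only and take regions as independent, though some regions share bases with a neighbouring region. They may therefore be too narrow, and whether 2 intervals overlap is not a test. With any overlap with a reproducible region counted, 34 intergenic regions (2.73%) would be reproducible. That count was not made for the other autosomal regions. The autosomal regions equally far from starts but inside a transcript had the lowest share, 0.648% (23 of 3552, 0.432% to 0.970%). Regions within 1000 bp of a start had 4.14% (389 of 9393). On X, 15 of the 398 regions under the same rule were reproducible, or 3.77% (2.30% to 6.13%). The X share was above the autosomal one, and the intervals overlapped. Neighbouring regions share their libraries and are not replicates, so these differences were not tested.

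**Figure D1:**
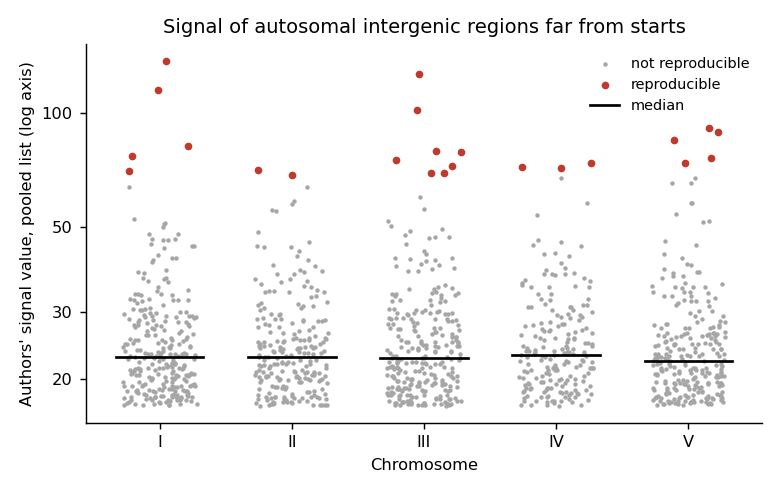
Authors' signal value of each of the 1247 autosomal intergenic regions in the pooled list (vertical log axis, scale not given) by chromosome (horizontal axis, with random sideways spread); red points are the 23 reproducible regions and black lines are medians. The medians lie between 22.3 and 23.2 on all 5 autosomes, and the highest points are on I and III.

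Medians by chromosome were close, from 22.3 on V to 23.2 on IV. Chromosome III held 8 of the reproducible intergenic regions among 280, I and V held 5 each among 274 and 266, IV held 3 among 200 and II held 2 among 227. The highest value on chromosome II was 71.0, against 136.8 on I and 126.3 on III. Counts of this size are small, and the order of the chromosomes was not tested.

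The 1000-bp limit did not fall at a break in the values. Intergenic regions with a summit 1001 to 1200 bp from the nearest start numbered 173, with a median signal of 24.2 and 5 reproducible. Those just outside the rule, at 801 to 1000 bp, numbered 210, with a median of 22.7 and 4 reproducible. The reproducible region nearest to the limit inside the rule had its summit 1017 bp upstream of mtm-3 and a signal of 126.3. The nearest one outside lay on IV with its summit at 991388, 895 bp from a start, and had 87.7.

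Each replicate list was searched for a summit within 100 bp of the pooled summit. The replicate 1 list held one for 705 intergenic regions (56.5%) and the replicate 2 list for 653 (52.4%). Both lists held one for 298, or 23.9% (95% Wilson interval 21.6% to 26.3%), and neither did for 187. Among the other autosomal regions 26.2% were in both lists, so the intergenic share in both lists was near the background. On X, 18.3% of the regions under the same rule were in both lists. Among the autosomal regions far from starts inside a transcript the share was 18.8%.

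Presence in both lists followed signal. The pooled signal was drawn from both replicates, and the reproducible class was selected on their agreement. A rise with signal was thus largely built into the classes, and only the comparison with other regions at equal signal is informative. For description the 1247 regions were put into 4 signal classes. The classes were the 23 reproducible ones, 289 of high signal (28.4 to 67.4), 623 of intermediate signal (19.3 to 28.4) and 312 of low signal (17.0 to 19.3). From the highest class to the lowest, the share in both lists was 91.3%, 59.9%, 16.1% and 1.28%. The other autosomal regions between the same limits had 94.9%, 60.0%, 15.1% and 1.66%. At equal signal the intergenic regions were therefore found in both replicates about as often as other regions, and the lowest class was almost never found in both.

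**Figure D2:**
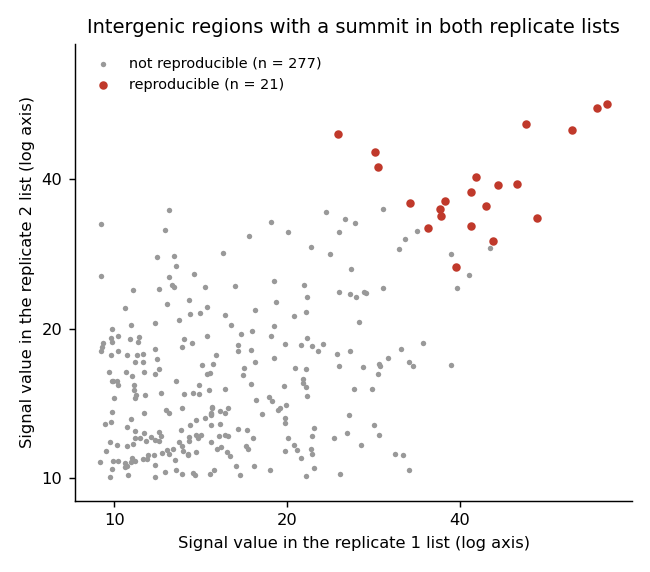
Signal value in the replicate 1 list (horizontal log axis) against that in the replicate 2 list (vertical log axis) for the 298 intergenic regions with a summit in both; red points are the 21 reproducible ones. The reproducible regions lie at the upper right, from 24.5 to 72.2 in replicate 1 and from 26.7 to 56.7 in replicate 2, while the grey points form a broad cloud at low values.

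Across the 298 regions in both lists, Spearman's rho between the replicates' signal values was 0.366. It was 0.539 across 3394 other autosomal regions and 0.647 across 73 X regions under the same rule. These are descriptions over regions that share the same libraries, and they depend on how many high values each set holds. Of the 23 reproducible intergenic regions, 21 were in both lists. In replicate 1 the 22 that were present lay in the top 0.605% to 9.10% of the list by signal, and in replicate 2 the 22 present lay in the top 1.03% to 7.01%.

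The 2 exceptions were near misses of the 100-bp limit. The region between ubc-8, a ubiquitin-conjugating enzyme gene, and Y94H6A.10 (chrIV:2708529-2708964) had 71.5 in the pooled list and 38.6 in replicate 2. Its nearest replicate 1 summit was 105 bp away, with a signal of 39.1. The region between the ncRNA gene F54F12.6 and Y39E4B.6 (chrIII:13062375-13062810) had 69.4 in the pooled list and 45.0 in replicate 1. Its nearest replicate 2 summit was 109 bp away, with 31.5. Both had a high signal close by in the list that lacked a shared summit.

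The highest intergenic value, 136.8, belonged to a region on chromosome I from 852021 to 852456. It lay in a divergent gap of 6687 bp between cdk-14, a cyclin-dependent kinase gene, and zfr-1, a zinc-finger RNA-binding protein gene, 1212 bp upstream of the latter. Replicate 1 gave it 72.2 and replicate 2 gave it 56.7. It ranked 103 in the pooled list, 118 in the replicate 1 list and 181 in the replicate 2 list, so it stood within the top 1.03% of the replicate 2 list and higher in the others. Its window held an A box and a B box.

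A further pair of regions with an A box and a B box were reproducible, and both are printed above. The region between ckr-2, a cholecystokinin receptor homolog gene, and the ncRNA gene M01E10.5 (chrIII:2031159-2031594) had 79.1 in the pooled list, 44.3 in replicate 1 and 35.3 in replicate 2. Its nearest annotated start, 1141 bp away, was that of the tRNA gene WBGene00023108, the only tRNA gene nearest to a reproducible intergenic region. The region between mrpl-40, a gene for a mitochondrial ribosomal protein, and pat-4, which encodes integrin-linked kinase, filled a convergent gap of only 209 bp (chrIII:89109-89544). It had 75.01 in the pooled list, 28.4 in replicate 1 and 45.5 in replicate 2. Its summit was 84 bp from the end of mrpl-40 and 126 bp from that of pat-4, so the 436-bp region reached into both transcripts.

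A B box, without an A box that reached the score threshold at the required distance, was found in a further pair. Weaker likeness to an A box below that threshold was not counted. The region 1177 bp upstream of ftn-1, a gene for the iron-storage protein ferritin, lay on chrV:7548538-7548973 and had 89.0 in the pooled list, 54.5 in replicate 1 and 33.5 in replicate 2. Its window had 16 other copies in the genome. Of the reproducible intergenic windows, this window alone matched an annotated non-coding transcript elsewhere over at least 80 bp, an ncRNA. The region between C14C11.7 and pqn-13 (chrV:5667289-5667724) had 84.8, 46.6 and 39.1 in the pooled, replicate 1 and replicate 2 lists, and 3 other copies. In all 5 regions with a B box both replicates held a shared summit.

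The box scan used position matrices from 612 annotated nuclear tRNA genes, at a threshold that 553 of them passed for the A box and 550 for the B box, within 150 bp of each summit. It was chosen after the sequences had been seen. A B box was found in 51 of the 1247 regions, or 4.09%, and an A box 20 to 120 bp before a B box in 24, or 1.93%. Other autosomal regions over 300 bp from any tRNA start had 2.23% (281 of 12624) and 0.697% (88). Windows of the same length over all sequence that met the rule, called eligible sequence, had 1.19% and 0.340% of 36796. In the search for copies, a match to an annotated non-coding transcript had to span at least 80 bp. No match to a tRNA gene was found, but tRNA genes shorter than that could hardly give one, so likeness to tRNA genes was not tested.

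The share with boxes was highest in the reproducible class. From reproducible to low signal, a B box was present in 5 of 23 (21.7%), 12 of 289 (4.15%), 25 of 623 (4.01%) and 9 of 312 (2.89%). The A and B box pair was present in 3 (13.0%), 6 (2.08%), 12 (1.93%) and 3 (0.962%). The other autosomal regions away from tRNA starts showed the same order, with 13.2%, 2.84%, 1.79% and 1.40% for the B box and 6.27%, 0.742%, 0.591% and 0.333% for the pair. The reproducible counts are small, and signal itself defines the classes. A match to the matrices is a description of letters and not a measured site of transcription.

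Of the 24 regions with both boxes, 21 were not reproducible, and their signals reached down to 17.2. The highest of these 21 were at V near F41B5.12 (38.1 in the pooled list, 12.5 in replicate 1 and 25.4 in replicate 2, with 168 other copies), at II near the gene WBGene00195024 (36.7, with 25.6 in replicate 1 and no summit in replicate 2) and upstream of klf-1, a Krüppel-like factor gene on III (32.6, with 17.7 in replicate 2 and a summit in replicate 1). The median of the 24 was 24.4, close to the 22.7 of all intergenic regions, and 8 were in both lists (33.3%). An A and B box pair was thus not accompanied by a high signal in most regions that held one.

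All 24 regions with both boxes lay in chromosome arms, as did 47 of the 51 with a B box (92.2%), against 68.5% of all intergenic regions. Eligible windows with both boxes were also mostly in arms, at 91.2% (114 of 125), and those with a B box at 83.1% (363 of 437), while eligible windows as a whole were at 67.1%. Arms were also the site of 88.6% of the 88 other autosomal regions with both boxes. By contrast 67.3% of the 336 annotated autosomal tRNA genes lay in arms. Box pairs outside annotated transcripts thus lay mostly in arms in eligible sequence as a whole, with or without a recovered region.

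Among the 23 reproducible intergenic regions, TGCGTCTC was in 5, none of which held a B box. The region with the highest signal of the 5 lay 212 bp beyond the end of mdh-2, the gene for mitochondrial malate dehydrogenase (chrIII:6606114-6606549). It had 101.6 in the pooled list, 52.1 in replicate 1 and 51.8 in replicate 2. A region 1067 bp upstream of F58D5.5 on chromosome I, from 12039750 to 12040185, had 81.9, 42.6 and 40.5 in the same order. The region 2212 bp upstream of Y39E4B.6 (chrIII:13068326-13068761) had 79.5, 41.8 and 37.8. By rank within each replicate list these 3 stood close together, at 285, 479 and 504 in replicate 1 and at 241, 431 and 525 in replicate 2.

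The other TGCGTCTC regions of the reproducible list had lower pooled values. The region between Y17G7B.17 and Y17G7B.18 (chrII:12102313-12102748) had 71.0 in the pooled list, 32.8 in replicate 1 and 35.8 in replicate 2. The region between ogt-1, which encodes the enzyme that adds O-GlcNAc to proteins, and nuo-4, a gene for a subunit of mitochondrial complex I (chrIII:7155588-7156023), had 69.4, 28.9 and 42.4. It lay 220 bp beyond the end of nuo-4 and 2009 bp upstream of ogt-1. The region between T04C4.3 and fnip-2 (chrIV:2219385-2219820), which had 67.3 and just missed the reproducible list, held the 8 bases too.

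TGCGTCTC was in 51 of the 1247 summit windows, or 4.09%, on either strand. Other autosomal regions held it in 1.60%, X regions under the same rule in 1.26% (5 of 398) and eligible windows in 0.685% of 109637. By class it was in 21.7% of the reproducible, 8.65% of the high, 2.89% of the intermediate and 0.962% of the low intergenic regions. In the other autosomal regions the corresponding shares were 3.16% (13 of 412), 2.73%, 1.21% and 0.927%. The intergenic and other regions had like shares at low signal and differed most in the reproducible class, where the count is 5 of 23. The element was chosen on reproducible intergenic regions, so that difference describes the choice and is not evidence for it. The 51 carriers, which include the 5 reproducible ones, had a median signal of 30.3. Of these 51, 23 (45.1%) were in both replicate lists, against 23.9% of all intergenic regions.

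**Figure D3:**
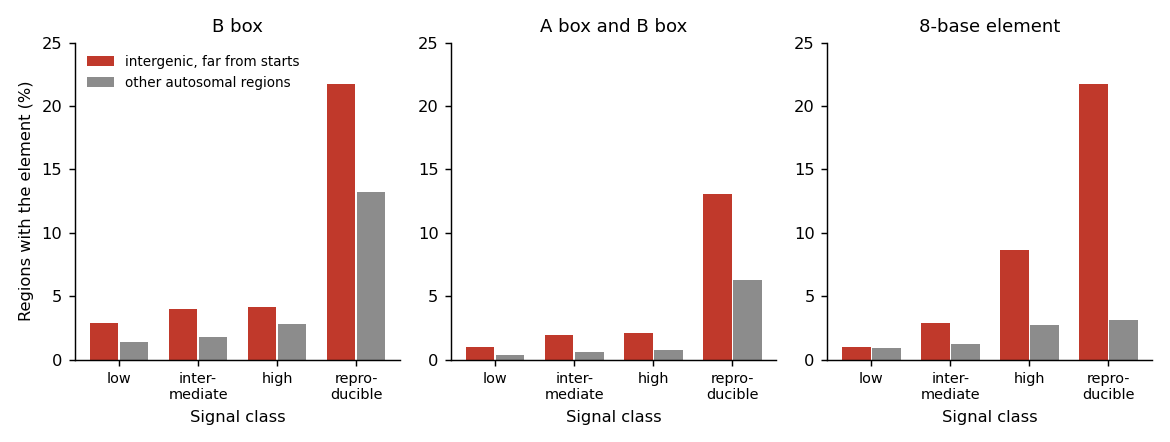
Percent of regions (vertical axis) with a B box, with an A and a B box, and with the 8-base element TGCGTCTC, by signal class from low to reproducible (horizontal axis), for intergenic regions in red and other autosomal regions in grey; for the boxes the grey bars leave out regions within 300 bp of a tRNA start. The reproducible intergenic bars stand at 21.7%, 13.0% and 21.7% and rest on 5, 3 and 5 of 23 regions.

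The shorter element GAGACG was in 9 of the 23 reproducible regions (39.1%) and in 113 of 1247 (9.06%). Other autosomal regions held it in 5.58% and eligible windows in 2.59%. Of the 412 reproducible other autosomal regions, 9.22% (38) held it. The element was chosen on the reproducible intergenic regions, so their 39.1% describes the choice. Of the 4 reproducible regions with the shorter element alone, the highest lay between mtm-3, a gene for a myotubularin lipid phosphatase, and xbx-5 (chrIII:3801266-3801701), with 126.3 in the pooled list, 69.3 in replicate 1 and 55.6 in replicate 2. Only the zfr-1 region was higher among intergenic regions in the pooled list. The region 5846 bp upstream of saeg-1 (chrV:10871327-10871762) had 76.3, 41.8 and 32.3. The region beyond atfs-1, which encodes the transcription factor of the mitochondrial unfolded protein response (chrV:14200089-14200524), had 73.9, 37.0 and 34.9. The fourth was the ubc-8 region already described.

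In all, 14 of the 23 reproducible regions held a B box that reached the threshold, TGCGTCTC or GAGACG, and 9 held none of them. Among the 1085 intergenic regions with none of these elements, 9 were reproducible, or 0.830%, and the median signal was 22.4. The share was 9.80% for the 51 B box carriers, 9.80% for the 51 TGCGTCTC carriers and 7.97% for the 113 GAGACG carriers. Since the elements were chosen on the reproducible regions, these shares describe the choice and are not evidence for it.

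The highest of the 9 regions without an element was on chromosome I from 2639606 to 2640041, between F40E3.3 and mage-1, a MAGE family gene. It had 115.0 in the pooled list, 62.7 in replicate 1 and 50.2 in replicate 2, with 6 other copies of its window in the genome. The next was between C36C5.12 and C36C5.14 (chrV:3163160-3163595), with 91.1, 50.3 and 39.1. Both were among the 5 reproducible regions of highest signal, so high signal was also recorded without these elements.

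The remaining regions without an element lay near genes of varied function. Likeness to an A or B box below the score threshold was not counted in them. The region between bet-1, a bromodomain protein gene, and zig-9 on chromosome I (4535865 to 4536300) had 77.1 in the pooled list, but 24.5 in replicate 1 and 49.3 in replicate 2. This was the widest disagreement in rank, at 1776 in replicate 1 and 271 in replicate 2. The region near the chemoreceptor gene str-169 (chrIV:4949727-4950162) had 73.8, 37.0 and 33.7. The region 1999 bp upstream of sup-26, an RNA-binding protein gene (chrIII:4282005-4282440), had 72.7, 45.7 and 30.02. The region between mrpl-51, a mitochondrial ribosomal protein gene, and sqst-1, a homolog of the autophagy receptor p62 (chrIV:12032471-12032906), had 72.1, 39.4 and 26.7. Apart from the bet-1 region, each of these was within the top 7.01% of both replicate lists.

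At the lower end stood 2 more, beside the region between F54F12.6 and Y39E4B.6 already described. The region between mstr-1 and nars-1, which encodes asparaginyl-tRNA synthetase, on chromosome I (7085660 to 7086095) had 70.3, 35.3 and 32.0. The lowest reproducible region lay in a convergent gap of 304 bp between F44E5.5, an Hsp70 family gene, and a pseudogene (chrII:11761754-11762189), with 68.6, 37.7 and 36.2. Just outside the reproducible list were the regions near T28H10.2 (chrV:12509948-12510383), with 67.4, 26.2 and 32.7, and between D1054.18 and secs-1 (chrV:10802117-10802552), with 65.4, 39.6 and 24.1. Their values overlap in the replicate lists with those of the lowest reproducible regions.

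Summits of intergenic regions were richer in G and C than eligible windows. Over the whole 436 bp, the regions had a median of 36.9% G+C. The bases within 50 bp of the summit had a median of 39.6% G+C (SD 10.7 over regions), against 33.7% in eligible windows (SD 8.28). The other autosomal regions had 40.6%, so a similar composition was found at the summits of the rest of the autosomal list. The X regions under the same rule had 36.6%.

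G+C content also followed signal. Its median was 51.5% in the reproducible class, 42.6% in the high class, 38.6% in the intermediate class and 36.6% in the low class. The other autosomal regions had 50.5%, 42.6%, 39.6% and 37.6%. Spearman's rho between signal and G+C was 0.247 over the 1247 intergenic regions and 0.195 over the other autosomal regions, as a description of regions from the same libraries. Of the 23 reproducible regions, 22 had at least the median G+C of eligible windows and 21 had at least 45%. Below 45% were the F44E5.5 region, at 23.8%, and the region between C14C11.7 and pqn-13, at 41.6%, and the highest was the region between F54F12.6 and Y39E4B.6 at chrIII:13062375-13062810, at 64.4%. How far base composition contributes to the signal was not tested.

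**Figure D4:**
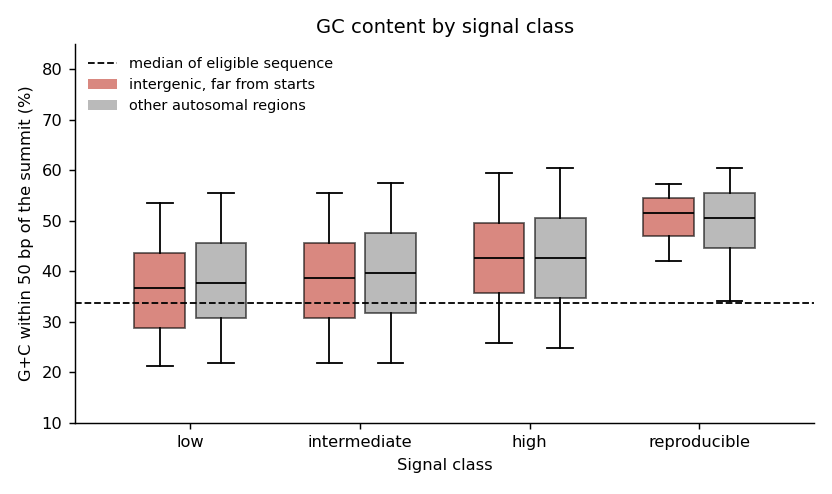
Percent G+C within 50 bp of the summit (vertical axis) by signal class (horizontal axis) for intergenic regions in red and other autosomal regions in grey; boxes span the quartiles with the median as a line, and whiskers run from the 5th to the 95th percentile. Medians of the intergenic regions go from 36.6% at low signal to 51.5% in the reproducible class, above the 33.7% of eligible sequence drawn as a dashed line.

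Of the other short words searched, GAGAGA was the most frequent in intergenic summits. It was in 15.5% of the 1247 windows and in 9 of the 23 reproducible ones (39.1%), against 8.88% of the other autosomal regions and 5.72% of eligible windows. Of the 412 reproducible other autosomal regions, 13.6% (56) held it. CACGTG, the core of the E-box, was in 2.49%, near the 2.29% of the other autosomal regions, and in 3 reproducible windows (13.0%), against 3.16% of the reproducible other autosomal regions. TATAAA was in 11.5% of the intergenic and 10.9% of the other autosomal windows, close to the 12.0% of eligible windows, and in no reproducible window, against 6.31% of the reproducible other autosomal regions. GTTCGANNC, the core letters of the B box, was in 1.20% and in 2 reproducible windows, against 1.92% and 14.3% (59 of 412) of all and of reproducible other autosomal regions, which include tRNA genes. ACGCGC (3.05%), GGCGCA (3.13%) and CACTCG (3.45%) had shares near those of the other autosomal regions, at 3.51%, 3.79% and 3.09%. In the reproducible intergenic windows ACGCGC was in 2, GGCGCA in 3 and CACTCG in none of 23, against 11.9%, 11.7% and 12.9% (53) of the 412 reproducible other autosomal regions. All were searched on both strands.

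Intergenic summits carried less repeat-masked sequence than eligible windows. The median masked share of the window was 27.7%, against 41.6% in eligible windows, 21.8% in other autosomal regions and 13.9% in the reproducible intergenic ones. Another copy of the window, at 80% identity or more over at least 80 bp, was found for 146 intergenic regions (11.7%), and 10 or more copies for 74 (5.93%). Another copy was more common among box carriers, at 23 of the 51 with a B box and 9 of the 24 with both boxes. It was found for 3 of the 51 TGCGTCTC carriers. Copies were found for 21.7% of the reproducible regions (5 of 23), 9.34% of the high, 12.0% of the intermediate and 12.5% of the low class. Copies were not sought for the other autosomal regions or for eligible windows, so these shares have no background. How the authors placed reads that match more than 1 such copy was not stated in the labels or lists.

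Arms and centres were defined by cutting each autosome into 3 equal lengths and calling the outer ones arms. Arms held 854 of the 1247 intergenic regions, or 68.5%, and 67.2% of the 11.07 Mb of eligible sequence. Per Mb of eligible sequence there were 114.8 regions in arms and 108.1 in centres, so the number of regions followed the amount of sequence in which the rule could be met. The other autosomal regions, by contrast, had 61.0% in arms. Reproducible intergenic regions were 18 in arms (2.11% of 854) and 5 in centres (1.27% of 393). The summits in arms had a median G+C of 40.6% against 36.6% in centres, while eligible windows had 33.7% and 32.7%.

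**Figure D5:**
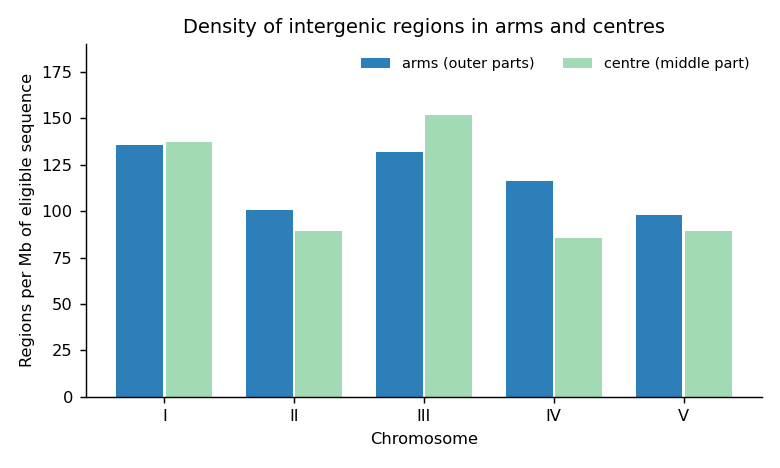
Intergenic regions per Mb of eligible sequence (vertical axis, from 0) in the arms and in the centre of each autosome (horizontal axis); 1 count per bar, with no error drawn. Density was higher in arms on II, IV and V, about equal on I and lower in arms on III.

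The chromosomes did not share 1 direction. On IV there were 116.4 regions per eligible Mb in arms and 85.4 in the centre, on II 100.8 and 89.0, and on V 97.9 and 89.2. On III the centre was denser, with 152 against 132, and on I both were alike, with 137 and 136. Over whole chromosomes, III (139) and I (136) had the highest density and V (94.97) and II (97.2) the lowest, with IV at 105 and X at 110.

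The rule keeps summits at least 1001 bp from a start, and within that range they lay closer to starts than eligible sequence did. The median distance to the nearest start was 1900 bp, against 2073 bp for eligible windows, and 34.2% lay at 1000 to 1500 bp, against 28.2%. Beyond 5000 bp were 76 regions (6.10%), against 9.38% of eligible windows, 1 of them reproducible, the saeg-1 region. The difference was wider for transcript ends. The nearest transcript end was within 500 bp for 374 regions (29.99%) against 16.5% of eligible windows, and at a median of 1363 bp against 1971 bp.

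Gaps between convergent genes held more regions for their size. Convergent gaps had 24.7% of the regions and 20.4% of the eligible sequence, or 137 regions per Mb. Divergent gaps had 20.7% and 26.3%, or 88.7 per Mb, and gaps between genes on the same strand 54.6% and 53.3%, or 115.4 per Mb. The reproducible share did not follow this order. It was 0.974% in convergent (3 of 308), 1.55% in divergent (4 of 258) and 2.35% in same-strand gaps (16 of 681), on small counts. Of 6407 gaps with eligible sequence, 951 held a region, 741 of them 1 only, and the most in 1 gap was 8. The single gap with 2 reproducible regions was that of 12269 bp before Y39E4B.6, where they lay 5951 bp apart.

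The gene with the nearest start was protein-coding for 889 regions (71.3%, against 68.7% of eligible windows), an ncRNA for 208 (16.7%, against 16.4%), a pseudogene for 57 (4.57%, against 7.10%) and a piRNA for 44. Among the 23 reproducible regions these were 19 protein-coding, 2 piRNA, 1 ncRNA and 1 tRNA gene. For gene families, the nearest protein-coding start was used in place of the nearest start of any kind. By gene name, chemoreceptors, which detect odours and tastes, were nearest to 35 regions (2.81%) against 5.01% of eligible windows. Neuropeptide genes were nearest to 10 (0.802% against 1.62%), F-box genes, whose products select proteins for ubiquitination, to 8 (0.642% against 1.36%) and C-type lectin genes to 3 (0.241% against 0.715%). Nuclear hormone receptor genes were nearest to 28 (2.25% against 2.10%). The highest signal in these families was 73.8, in the region whose nearest start of any kind was that of a piRNA gene and whose nearest protein-coding gene was str-169, followed by 63.8 near the neuropeptide gene nlp-40. The other families had 56.0 or less, near fbxa-55. No histone gene was nearest to any region, but histone genes were nearest to only 0.0462% of eligible windows.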

How the data were processed

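Chromatin immunoprecipitation sequencing was analysed from the peak lists that the authors deposited. Column 7 of each list is a signal value that the authors' peak caller wrote, and the deposited q-values stand as −log10. The replicate lists come from 1 sample each, the pooled list from both, and the reproducible list is the authors' selection by irreproducible discovery rate, per the deposited file descriptions. Aligner, caller and rate threshold were not given in the sources used here. One label field names the antibody's target as T07F8.4 and another gives an anti-GFP antibody. The 4 lists on ce11 were used and the 4 on ce10 were not.

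Summits (start plus column 10) were set against Ensembl release 115 (WBcel235), and sequence came from the RefSeq genome of the same assembly. Reproducible means the same summit in the reproducible list. Eligible sequence is every autosomal base that meets the rule, cut into windows of 101 bp or, for boxes, 301 bp. Box matrices were built from tRNA genes (A box, bases 7 to 21, and B box, bases 24 to 10 from the 3′ end) with the threshold at the 10th percentile of their own scores. Copies were sought with blastn 2.17.0 (word size 11, E-value 1e-05). Python 3.11.15, pandas 2.3.3, numpy 2.4.6, scipy 1.17.1 and matplotlib 3.10.9 were used, and scripts were tested on simulated data.

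Members and lists were chosen with earlier results of these data known. The word ACGCGC comes from an earlier analysis of these lists, as do GGCGCA and the word CACTCG. The element TGCGTCTC, its shorter form GAGACG and the box scan were chosen after the sequences had been seen. All reproducible regions and the 3 highest others were named with their flanking genes. Printed sequences were the 8 highest reproducible regions outside chromosome I and 4 more chosen after their sequences were seen. The alternatives changed the distance to starts, annotation, summit, signal minimum, replicate, shared-summit distance, arm limits, G+C window and reproducible match.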

Additional observations from a re-analysis of the deposited data

How the results depend on the processing

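Of 56 values recomputed under an alternative, 30 stayed within the set limits and 26 moved. Counts were limited by a set ratio to the main value, and shares by its Wilson interval. For medians the limit was the SD of the values from the 2 single replicates. Those values were close for signal and equal for G+C, so any change in median G+C counted as moved. The tally therefore depends on these limits. The number of intergenic regions was 1950 at 500 bp from starts, 590 at 2000 bp, 2191 with protein-coding genes only and 598 above the pooled list's median signal. Reproducible regions were 36, 9 and 73 under the first 3 of these, and the reproducible share was 3.33% with protein-coding genes only and 3.85% above that median. With protein-coding genes only, regions at tRNA and other RNA genes enter. The median signal was 22.1 at 2000 bp and 28.7 above that median. The share in both replicate lists was 44.3% above that median, 14.0% with summits within 50 bp and 35.0% within 200 bp. The share in arms was 65.3% at 500 bp and 51.2% with narrower arms. Median G+C was 38.6% at 500 bp, 40.6% with protein-coding genes only, 41.6% above that median, 39.2% within 25 bp of the summit and 36.9% over the whole region. Without replicate 1 or 2, the other list taken in place of the pooled one gave 1288 to 1490 regions. Of these, 22 to 23 (1.54% to 1.71%) lay within 100 bp of a summit in the reproducible list. That match is looser than the same summit, and the reproducible list still rests on both replicates, so these counts are not independent of either. The median signal of the regions was 12.5 to 13.0, and 19.3% to 22.3% had a summit in the list of the replicate left out. In arms were 69.3% to 69.5%, and median G+C was 37.6%. Signal values of different lists have no common scale. Any overlap in place of the same summit gave 34 reproducible regions.

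No paired analysis was possible because there is 1 group. Read depth is unknown, so no precision can be given for a signal value. With no control list, recovery that does not depend on the tagged protein was not measured here.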
